A study of Gallus gallus with 6 samples.

Results

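The genes described here are heart regulators, sarcomere genes and calcium handling genes of the chicken embryo (Gallus gallus), read out by RNA sequencing of whole embryos at Hamburger-Hamilton stage 10. A list of 38 symbols was matched to the gene numbers in the files through chicken RefSeq symbols, and 37 of the 24098 genes in the files were members. The list holds 15 regulators, 19 contractile genes and 4 calcium handling genes. TTN, the gene of the giant sarcomere protein titin, had no row under its current gene number and was skipped. Of the 37 members, 34 had a mean of at least 1 FPKM (reads per length of gene model and per depth sequenced, the unit read from the deposited values) over the libraries and entered the test. The regulator HOPX and the calcium genes PLN and RYR2 did not.

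The study set embryos treated with zinc oxide (ZnO) nanoparticles, particles that can release zinc ions, against control embryos, with 3 libraries in each group. The labels name no strain, dose, route or length of exposure, and do not say whether a library is 1 embryo, a pool or a repeat of the same RNA, so the p-values rest on a spread between samples that may be technical. The stage label of every library carries a window that starts at 34 hours. It ends at 42, 43 and 44 hours for ZnO 1, 2 and 3, and at 39, 40 and 41 hours for control 1, 2 and 3. These ends rise by 1 hour from library to library within a single stage and may not record a real difference in age; if they do, treatment and age cannot be told apart.

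At stage 10 the paired heart fields have fused at the midline into a tube that begins to loop and to contract. The factors of the NKX2, GATA, T-box, HAND and MEF2 families act together on the promoters of muscle genes, and myocardin joins them as a partner of serum response factor. Their targets build the sarcomere, in which myosin thick filaments pull on actin thin filaments when calcium released from the sarcoplasmic reticulum binds troponin. Several of the regulators are not confined to the heart: GATA genes are also active in endoderm, HAND genes in lateral mesoderm, ISL1 in motor neurons, and TBX5 in limb bud and retina. In a whole embryo, fewer heart cells and less RNA per heart cell cannot be told apart.

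All defining heart markers that could be matched were present in each library, namely NKX2-5, TNNT2, ACTC1, MYH7 and MYH15. The FPKM steps gave depths of 18208501 to 19843561 reads per library. Reads of the tested genes made up 98.81% to 98.97% of these totals, which may leave out reads not assigned to genes. The fewest reads behind a tested member in any library was 14, and 32 of the 34 had at least 100 reads in each library. ZnO 1 and control 2 lay at one end of the first principal component (-36.3 and -23.4, against 17.5 and 28.9 for ZnO 2 and 3 and -2.61 and 16.1 for control 1 and 3), which held 50.8% of the variance over all genes tested. The second component held 20.6% and separated the groups. ZnO 1, 2 and 3 stood at -20.3, -6.83 and -15.8 on it, and control 1, 2 and 3 at 13.3, 15.3 and 14.4. The ends of the stage windows differ between the same groups.

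Most members had lower means in ZnO embryos, and no member passed the test. In limma on log2(FPKM + 1), 26 of the 34 had a negative difference, against 56.1% of all 13311 genes tested. When each library was rescaled to the same FPKM sum, 24 of the 34 were lower, against 45.8% of all genes. The median difference was -0.25 for the members and -0.03 for all genes, on the log2(FPKM + 1) scale used for every difference below, which understates the change of low genes. None of the 34 had an adjusted p under 0.05, as for all genes (0.0%), and the lowest value among the members was 0.746. Before adjustment, 7 members had p under 0.05 and were lower in ZnO embryos, as were 2.61% of all genes, and 0 were higher, as were 3.06% of all genes. With limma-voom on recovered reads, 0 members passed and 8 were lower at an unadjusted p under 0.05, against 2.53% of all genes. All 3 ZnO libraries lay below all 3 controls for 9 members (5.89% of all genes) and above them for 2 (5.6% of all genes). For a single gene, an exact two-sided permutation test of 3 against 3 libraries cannot go below p = 0.1, the value that each of these members reached.

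Among the regulators, the NKX2 genes and myocardin were lower in every ZnO library. NKX2-5 (NCBI gene 396073), the homeobox factor that marks heart precursors early, had 36.5, 43.2 and 32.4 FPKM in ZnO 1, 2 and 3, against 52.4, 51.9 and 51.0 FPKM in control 1, 2 and 3. The controls were within a narrow band and all ZnO libraries lay below it. The means were 37.4 ± 5.48 FPKM in ZnO embryos and 51.8 ± 0.721 FPKM in controls (SD, n = 3 each), and the difference was -0.47 ± 0.15 SE with a limma adjusted p of 0.827. NKX2-6 (gene 396037), a relative of NKX2-5 that in mouse is active in pharynx and parts of the heart, had 7.35, 8.36 and 7.35 FPKM in ZnO embryos, against 10.7, 9.91 and 12.7 FPKM in controls. Its difference was also -0.47 (SE 0.14, limma adjusted p = 0.804). The ratio of NKX2-5 to NKX2-6 was 4.85 ± 0.397 in ZnO embryos and 4.71 ± 0.623 in controls, so it differed by less than the spread between libraries.

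MYOCD (gene 427790) encodes myocardin, the coactivator that turns on smooth and cardiac muscle genes through serum response factor. It had 5.88, 6.0 and 5.05 FPKM in ZnO embryos, against 7.28, 8.1 and 8.27 FPKM in controls, and the groups did not overlap. The difference was -0.42 ± 0.14 SE, with a 95% interval of -0.73 to -0.11 and a limma adjusted p of 0.827. ISL1 (gene 396383), a LIM homeobox gene of the second heart field, which adds cells to both ends of the tube, had 9.28, 6.58 and 4.33 FPKM in ZnO embryos and 10.3, 10.6 and 10.2 FPKM in controls. ZnO 1 was just under the controls and ZnO 3 was far under them, so its difference of -0.61 ± 0.23 SE (limma adjusted p = 0.861) rested mainly on ZnO 2 and ZnO 3.

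**Figure D1:**
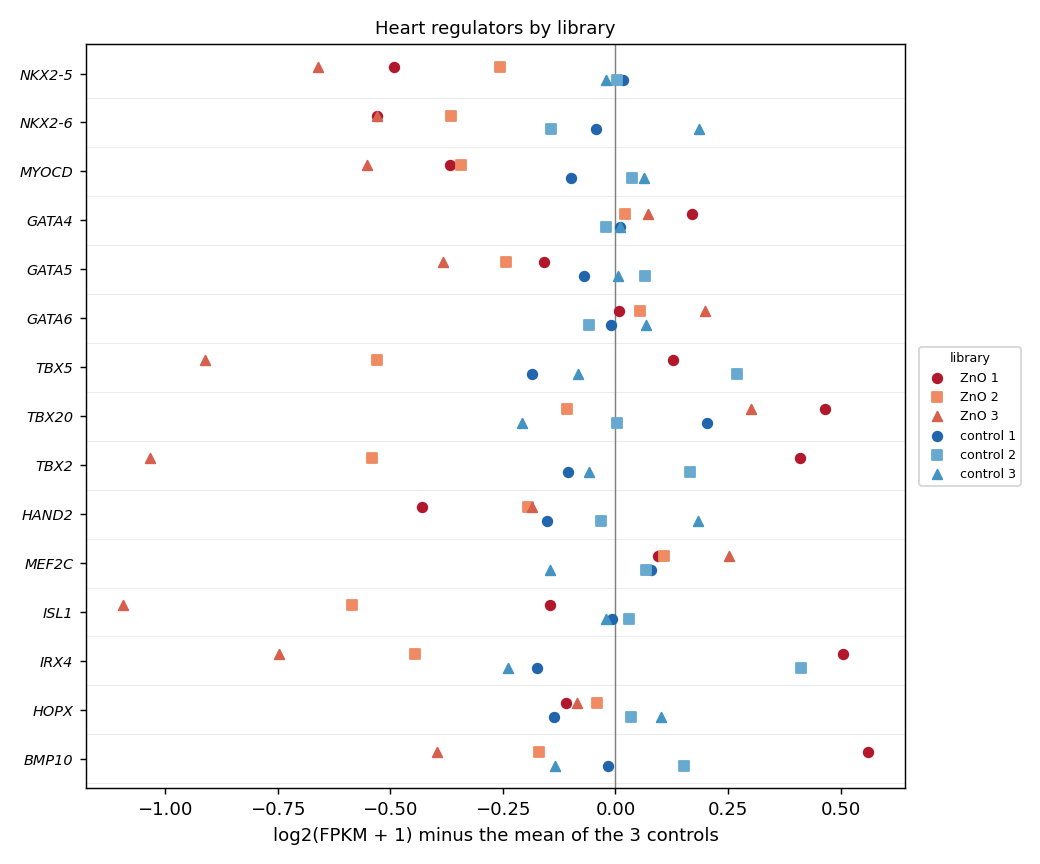
Each row is a regulator, and each point is a library (ZnO in red shades above, control in blue shades below), placed at log2(FPKM + 1) minus the mean of the 3 controls. NKX2-5, NKX2-6, MYOCD, GATA5, HAND2 and ISL1 have all 3 ZnO points left of the controls, while TBX5, TBX2, IRX4 and BMP10 have ZnO 1 on the right of 0 and ZnO 2 and ZnO 3 on the left.

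The GATA genes, which encode zinc finger factors of heart mesoderm and gut endoderm, differed among themselves. GATA5 (gene 396391) had 124, 117 and 106 FPKM in ZnO embryos and 132, 145 and 139 FPKM in controls, lower in each ZnO library (difference -0.26 ± 0.15 SE, limma adjusted p = 0.943). GATA4 (gene 396392) had 14.4, 12.9 and 13.4 FPKM in ZnO embryos and 12.8, 12.5 and 12.8 FPKM in controls, and all ZnO libraries lay above the controls by a small margin (difference 0.09 ± 0.12 SE). GATA6 had 29.7, 30.7 and 34.0 FPKM in ZnO embryos and 29.3, 28.3 and 31.0 FPKM in controls, and its groups overlapped. The ratio of GATA5 to GATA4 was 8.67, 9.05 and 7.96 in ZnO embryos and 10.3, 11.6 and 10.8 in controls, without overlap. It was among 6 ratios computed after the values had been seen, and its exact permutation p was 0.1, the smallest possible. With GATA4, the other regulator above all controls was MEF2C, a MADS box factor that binds with myogenic proteins to muscle promoters. It had 6.33, 6.39 and 7.17 FPKM in ZnO embryos and 6.25, 6.19 and 5.2 FPKM in controls (difference 0.15, interval -0.17 to 0.47).

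HAND2 (gene 395813), a basic helix-loop-helix factor of heart and lateral mesoderm, was the most abundant regulator. It had 389, 458 and 461 FPKM in ZnO embryos and 472, 513 and 595 FPKM in controls, so the groups did not overlap, but ZnO 2 and ZnO 3 lay only slightly below control 1. The difference was -0.27 ± 0.18 SE (limma adjusted p = 0.95).

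A second set of regulators split the treated libraries. TBX5, a T-box factor of the inflow end and the later left ventricle, had 19.5, 12 and 8.97 FPKM in ZnO 1, 2 and 3, against 15.5, 21.6 and 16.7 FPKM in controls. TBX2, which in mouse represses chamber genes in the atrioventricular canal, had 30.3, 15.2 and 10.5 FPKM in ZnO embryos, against 20.9, 25.4 and 21.6 FPKM in controls. IRX4, a homeobox gene of the ventricle, had 7.02, 3.15 and 2.37 FPKM in ZnO embryos, against 4.01, 6.52 and 3.79 FPKM in controls. In each of these 3 genes ZnO 2 and ZnO 3 lay below every control, while ZnO 1 was within or above the range of the controls. BMP10, a secreted ligand that in mouse drives growth of the ventricular wall, had the same layout at a low level, with 2.04, 0.834 and 0.568 FPKM in ZnO embryos and 1.04, 1.29 and 0.878 FPKM in controls. The per-library values of these 4 genes are given because of that layout, which was noticed after the values were seen.

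The limma differences of this set were -0.44 ± 0.27 SE for TBX5, -0.39 ± 0.33 SE for TBX2 and -0.23 ± 0.33 SE for IRX4, and BMP10 stood at 0.00 ± 0.26 SE with a sign that turned under other scalings. Without ZnO 1 the differences were -0.72 for TBX5 (limma adjusted p = 0.224), -0.79 for TBX2 (adjusted p = 0.203) and -0.60 for IRX4 (adjusted p = 0.312). Leaving out ZnO 1 lowers them by construction, since that library was the high one. TBX20, a T-box gene of the whole heart tube, overlapped between groups with 14.7, 9.55 and 13.0 FPKM in ZnO embryos and 12.1, 10.4 and 8.85 FPKM in controls. HOPX, an atypical homeodomain protein that does not bind DNA, had few reads. There were 10 reads summed over the ZnO libraries (95% exact Poisson interval 4.8 to 18.4) and 21 over the controls (13.0 to 32.1), and these intervals cover counting error only.

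Over the 14 regulators tested, 10 had negative and 4 positive differences, with a median of -0.26. The 10 include BMP10, whose difference rounds to 0.00 and whose mean FPKM was 1.15 ± 0.784 in ZnO embryos and 1.07 ± 0.208 in controls (SD, n = 3 each). Of the 14, 4 were lower at an unadjusted p under 0.05 (NKX2-5, NKX2-6, MYOCD and ISL1), against 2.61% of all genes. After adjustment 0 passed. The count of regulators below the control mean was 6 of 14 in ZnO 1, 11 in ZnO 2 and 10 in ZnO 3. For all genes these shares were 52.6%, 50.9% and 50.9%.

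The contractile genes as a class were lower in ZnO 2 and ZnO 3. Of 18 tested, 15 had lower and 3 had higher means in ZnO embryos, with a median difference of -0.26. In ZnO 2, 17 of the 18 were below the control mean and in ZnO 3, 16 were, but in ZnO 1 only 9 were. Of all genes, 50.9% were below it in ZnO 2 and in ZnO 3, and 52.6% in ZnO 1. Control 3 also lay below that mean for most of the 18, though not for MYL4, TPM1, PDLIM3 or XIRP1. Such a count alone therefore does not set a treated library apart from a control. With the 6-library average at 0, the class averaged 0.04, -0.2 and -0.21 in ZnO 1, 2 and 3. Control 1, 2 and 3 stood at 0.12, 0.26 and -0.02. The members at an unadjusted p under 0.05 were PDLIM3, CSRP3 and MYL3, all lower, where 2.61% of all genes were. After adjustment 0 passed. The median coefficient of variation among ZnO libraries was 18.7% for contractile genes, 12% for regulators and 20.5% for all genes. Among controls it was 16.5% for contractile genes, 10.4% for regulators and 13.6% for all genes. Control 2 was the highest of the 6 libraries for 8 of the 18 contractile genes (44.4%), against 14.7% of all genes.

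**Figure D2:**
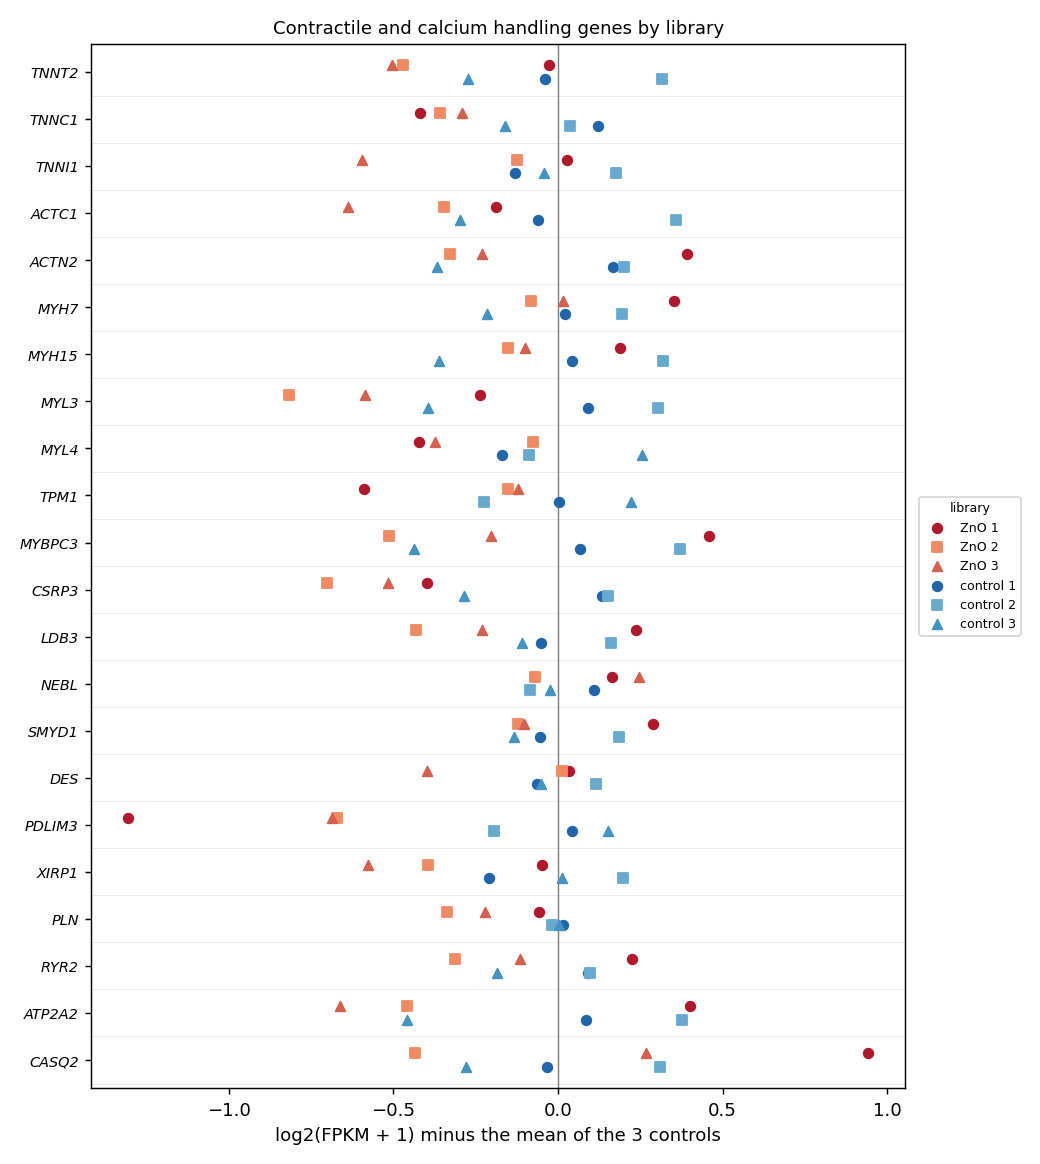
Rows are contractile and calcium handling genes and points are libraries (ZnO in red shades above, control in blue shades below), placed at log2(FPKM + 1) minus the mean of the 3 controls. PDLIM3, CSRP3, TNNC1 and PLN, the last below the level for testing, have all ZnO points left of all controls. For ACTN2, MYH7, MYBPC3, LDB3, SMYD1, ATP2A2, CASQ2 and RYR2 the ZnO 1 point lies farthest right.

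At the Z-disc, where thin filaments are anchored, PDLIM3 had the largest difference of any member. PDLIM3 (gene 414873) encodes a PDZ and LIM domain protein that binds alpha-actinin, and it had 2.8, 4.89 and 4.84 FPKM in ZnO embryos, against 8.67, 7.21 and 9.43 FPKM in controls. Every ZnO library was below every control, with ZnO 1 the lowest, and the ratio of the means was 0.495. The difference was -0.89 ± 0.21 SE, with an interval of -1.36 to -0.42 and a limma adjusted p of 0.746. It lay between -1.0 and -0.68 when any single library was left out. Reads of PDLIM3 numbered 119 to 216 in ZnO libraries and 306 to 436 in controls.

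CSRP3 (gene 422979), the muscle LIM protein of the Z-disc, had 21.5, 17.2 and 19.7 FPKM in ZnO embryos, against 31.5, 31.9 and 23.3 FPKM in controls. The groups did not overlap, and control 3 came closest to the ZnO libraries. The difference was -0.54 ± 0.17 SE (limma adjusted p = 0.827). Other genes of the Z-disc showed no such separation. ACTN2, sarcomeric alpha-actinin, had 10.8, 6.16 and 6.66 FPKM in ZnO embryos and 9.09, 9.32 and 5.97 FPKM in controls. LDB3, a PDZ and LIM domain relative of PDLIM3, averaged 1.59 ± 0.643 FPKM in ZnO embryos and 1.82 ± 0.283 FPKM in controls (SD, n = 3 each). NEBL, the nebulette gene, averaged 8.93 ± 1.1 FPKM in ZnO embryos and 8.15 ± 0.636 FPKM in controls. DES, the intermediate filament gene desmin, averaged 85.8 ± 13.9 FPKM in ZnO embryos and 92.6 ± 6.85 FPKM in controls. The groups of ACTN2, LDB3, NEBL and DES overlapped. XIRP1, the Xin gene of cell contacts between heart muscle cells, averaged 2.07 ± 0.582 FPKM in ZnO embryos and 2.87 ± 0.541 FPKM in controls. The interval of its difference was -0.79 to 0.11.

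Of the thin filament members (TNNC1, TNNT2, TNNI1, ACTC1 and TPM1), the calcium sensor troponin C was the one whose groups did not overlap. TNNC1 (gene 396032) had 142, 148 and 155 FPKM in ZnO embryos, against 207, 195 and 170 FPKM in controls, a difference of -0.36 ± 0.16 SE with a limma adjusted p of 0.885. TNNT2, which ties the troponin complex to tropomyosin, had 234, 172 and 168 FPKM in ZnO embryos and 232, 297 and 197 FPKM in controls. There ZnO 2 and ZnO 3 were below all controls and ZnO 1 was not. TNNI1, the inhibitory troponin of slow and embryonic heart muscle, averaged 85.6 ± 18.4 FPKM in ZnO embryos and 99.4 ± 11.1 FPKM in controls.

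ACTC1 (gene 423298), cardiac actin, had 194, 174 and 142 FPKM in ZnO embryos and 212, 284 and 180 FPKM in controls (difference -0.39 ± 0.22 SE, limma adjusted p = 0.943). Muscle actin genes encode near-identical proteins, and whether some reads were divided between ACTC1, ACTA1 and ACTA2 is not known. TPM1 (gene 396366), a tropomyosin and the most abundant contractile member, had 222, 301 and 307 FPKM in ZnO embryos and 335, 286 and 390 FPKM in controls. Its groups overlapped through control 2.

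On the thick filament, the essential light chain MYL3 had a lower mean in ZnO embryos and the heavy chains interleaved between groups. MYL3 (gene 396067) had 50.6, 33.5 and 39.5 FPKM in ZnO embryos, against 63.8, 74.0 and 45.2 FPKM in controls, with overlap between ZnO 1 and control 3 (difference -0.55 ± 0.23 SE, limma adjusted p = 0.871). MYL4, the atrial and embryonic essential light chain, averaged 126 ± 16.7 FPKM in ZnO embryos and 155 ± 25.1 FPKM in controls. MYH15, whose synonyms in RefSeq include the ventricular heavy chain, had 33.1, 25.9 and 26.9 FPKM in ZnO embryos and 29.8, 36.3 and 22.3 FPKM in controls. MYH7, whose synonyms include the atrial heavy chain of chick, had 5.52, 3.83 and 4.16 FPKM in ZnO embryos and 4.18, 4.85 and 3.4 FPKM in controls. The ratio of MYH15 to MYH7 in FPKM was 6.0 to 6.76 in ZnO libraries and 6.55 to 7.49 in controls (exact permutation p = 0.2). The intervals of the differences were -0.49 to 0.45 for MYH15 and -0.32 to 0.51 for MYH7.

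MYBPC3, myosin binding protein C, averaged 8.63 ± 3.43 FPKM in ZnO embryos and 9.08 ± 2.72 FPKM in controls. SMYD1, a methyltransferase needed for sarcomere assembly, averaged 14.9 ± 2.66 FPKM in ZnO embryos and 14.6 ± 1.82 FPKM in controls. Neither difference (-0.09 and 0.02) exceeded its SE (0.29 and 0.17). The ratio of TNNT2 to NKX2-5 was 5.19 ± 1.22 in ZnO embryos and 4.67 ± 0.951 in controls (SD, n = 3 each, exact permutation p = 0.6). That of ACTC1 to NKX2-5 was 4.58 ± 0.668 in ZnO embryos and 4.35 ± 1.0 in controls (exact permutation p = 0.8), so both differed by less than the spread between libraries.

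**Figure D3:**
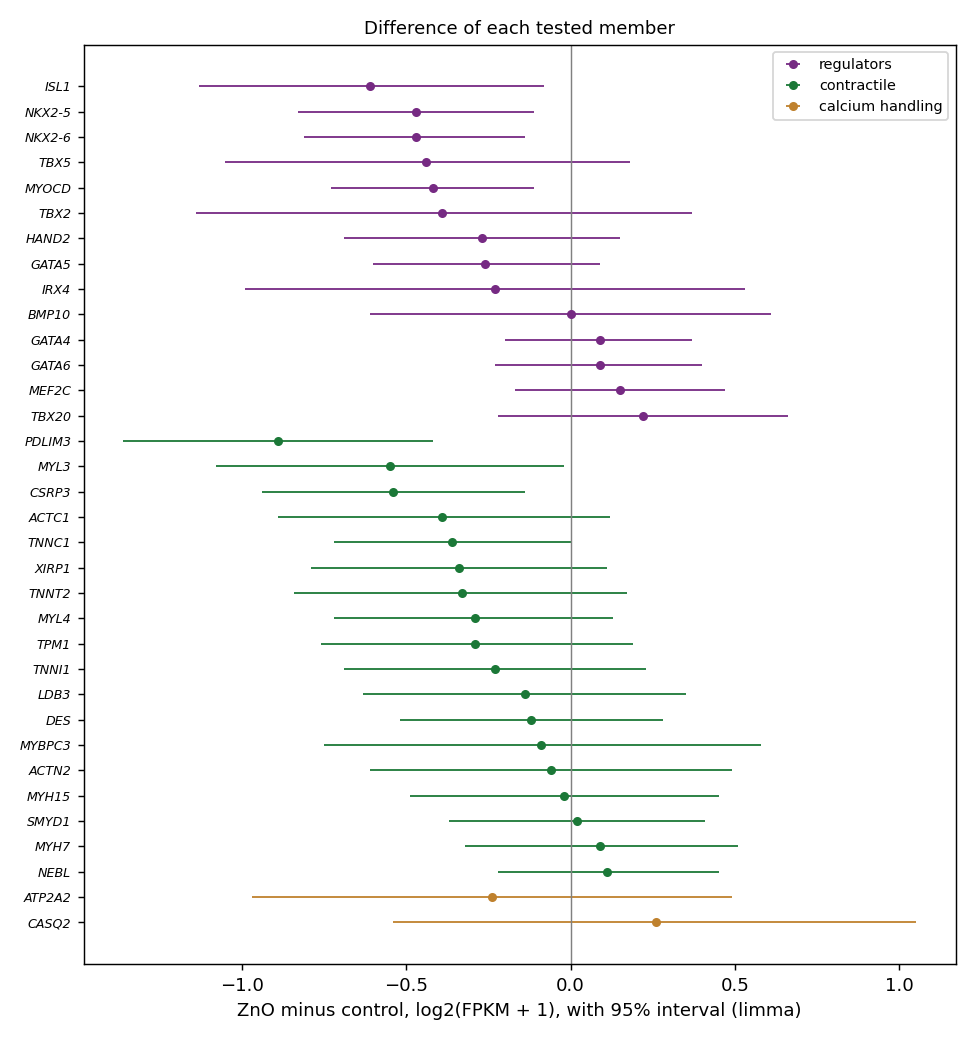
Points are ZnO minus control differences of the 34 tested members on the log2(FPKM + 1) scale, with 95% limma intervals, grouped by class and sorted within it. The intervals of ISL1, NKX2-5, NKX2-6, MYOCD, PDLIM3, MYL3 and CSRP3 lie below 0, and no interval lies above 0.

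Calcium handling genes were low in these libraries apart from the gene of the pump of the sarcoplasmic reticulum. Whole-embryo libraries do not show which cells the reads of that gene came from. ATP2A2, that pump, had 65.7, 35.7 and 30.9 FPKM in ZnO embryos and 52.5, 64.5 and 35.7 FPKM in controls, with ZnO 1 the highest library and ZnO 3 the lowest (difference -0.24 ± 0.32 SE, limma adjusted p = 0.975). CASQ2, calsequestrin, which stores calcium in that reticulum, had 2.53, 0.36 and 1.21 FPKM in ZnO embryos and 0.797, 1.28 and 0.515 FPKM in controls. RYR2, the release channel, had 1.33, 0.604 and 0.837 FPKM in ZnO embryos and 1.12, 1.13 and 0.75 FPKM in controls, and the groups overlapped for both genes. PLN, phospholamban, which restrains the pump, had 0.605, 0.322 and 0.432 FPKM in ZnO embryos and 0.688, 0.649 and 0.673 FPKM in controls. All ZnO libraries lay below the controls, with 16 to 29 PLN reads per ZnO library and 31 to 35 per control. The PLN reads summed to 66 in ZnO embryos (95% exact Poisson interval 51.0 to 84.0) and to 99 in controls (80.5 to 121). PLN was below the level for testing.

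The treated libraries differed in how members behaved. ZnO 1 was the highest of the 6 libraries for 12 of the 34 tested members, against 24.9% of all genes, while ZnO 3 was the lowest for 15, against 22.3% of all genes. The members highest in ZnO 1 were GATA4, TBX20, TBX2, IRX4, BMP10, ACTN2, MYH7, MYBPC3, LDB3, SMYD1, ATP2A2 and CASQ2. The mean relative level of the 34 members was 0.11, -0.19 and -0.24 in ZnO 1, 2 and 3, and 0.09, 0.23 and 0.00 in control 1, 2 and 3. By that measure ZnO 1 was within the range of the controls.

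Gene model length moved with the position of ZnO 1. Reads of ZnO 1 lay on longer models, with a mean model length per read of 3667 bp, against 3303 and 3360 bp in ZnO 2 and 3 and 3252 to 3409 bp in controls. Across the 34 members, the difference of ZnO 1 from the control mean had a Spearman correlation of 0.58 with model length, a description over genes that share libraries, and 0.19 across all genes. Across the 34 members it was 0.00 for ZnO 2 and ZnO 3, but the classes differed. For regulators it was 0.49, -0.09 and -0.24 in ZnO 1, 2 and 3, and for contractile genes 0.63, 0.11 and 0.36. The members highest in ZnO 1 had a median model of 4162 bp and the other members 1454 bp. The 9 members below all controls in each ZnO library had a median model of 1208 bp, but ISL1 (2977 bp), PDLIM3 (2330 bp) and MYOCD (4591 bp) were among them. Of 13 tested members with models under 1600 bp, 6 had all ZnO libraries below all controls, where 6.96% of all genes of that length did. Of 21 with longer models, 3 did, where 5.52% of all genes of that length did. The cut at 1600 bp was not among the planned comparisons, and NKX2-5, at 1528 bp, lay just under it. The part of length in the members' values was not tested.

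**Figure D4:**
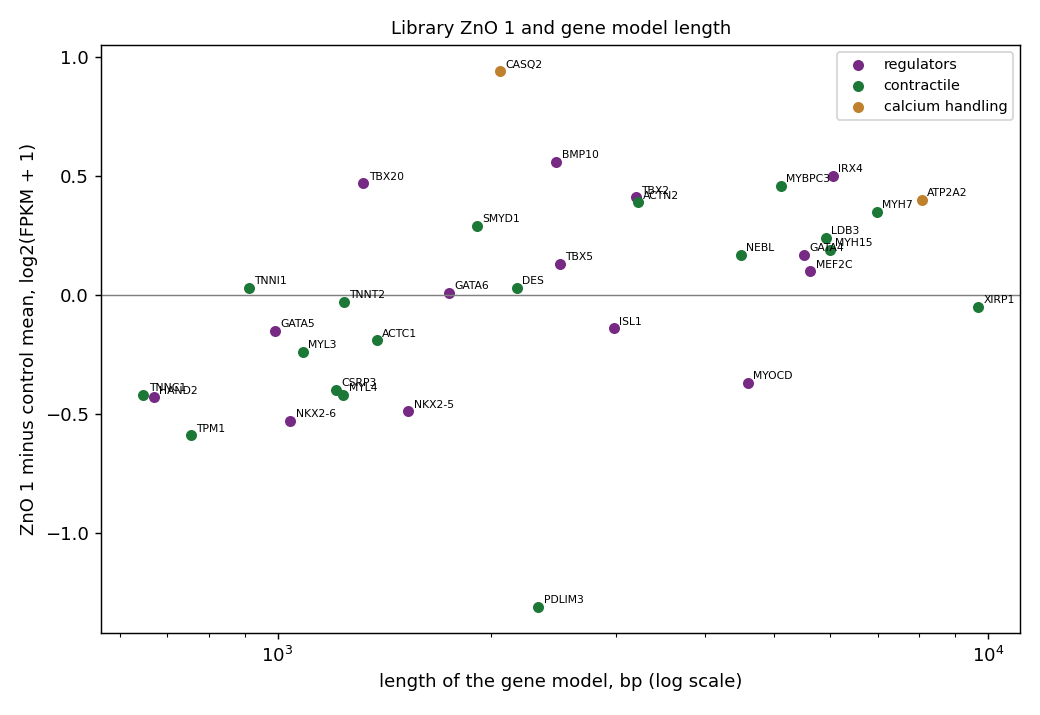
Each point is a tested member, with the length of its gene model in bp on a log axis and, on the vertical axis, the value in ZnO 1 minus the control mean on the log2(FPKM + 1) scale. Short models such as TPM1, TNNC1 and HAND2 lie below 0 and long ones such as MYBPC3, IRX4, MYH7 and ATP2A2 above it, with PDLIM3, MYOCD and XIRP1 among the exceptions.

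The counts were repeated without the libraries that stood apart. Without ZnO 1, 29 of 34 members were lower in ZnO embryos (51.3% of all genes), the median difference was -0.33, and 16 were lower at an unadjusted p under 0.05, against 8.69% of all genes. None of the 34 passed after adjustment (lowest adjusted p = 0.196), where 0.0301% of all genes did. Without both ZnO 1 and control 2, a choice made after seeing the data, 26 of 34 were lower (54.7% of all genes). The median was -0.27 (-0.02 for all genes), and 10 were lower at an unadjusted limma p under 0.05, against 5.87% of all genes. Again 0 members passed (lowest adjusted p = 0.252), where 0.0225% of all genes did. NKX2-5, NKX2-6 and MYOCD had differences of -0.46, -0.45 and -0.45 without ZnO 1, close to those with it. Leaving out ZnO 1 lowers the members as a set by construction, since their mean relative level was highest there among the treated libraries. Without ZnO 2 alone or ZnO 3 alone, 21 of 34 were lower. Without control 1, control 2 or control 3 alone, 26, 22 and 28 were lower. The shares of all genes were not counted for these fits. Without ZnO 3 the median difference was -0.13 for regulators and -0.16 for contractile genes, against -0.26 for each with all libraries. Without control 2 it was -0.26 for regulators and -0.16 for contractile genes. Without ZnO 2, control 1 or control 3 it was -0.29, -0.33 and -0.3 for regulators and -0.28, -0.29 and -0.25 for contractile genes.

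Other genes of the cardiac programme were compared as lists. For each list, the values to set beside its counts are 56.1% of all genes lower and a median difference of -0.03. Of 19 other sarcomere genes tested, 17 were lower and 2 higher in ZnO embryos, with a median difference of -0.19. Rescaled to the same FPKM sum, 16 of them were lower, against 45.8% of all genes. MYL2, the ventricular regulatory light chain, had 155, 102 and 105 FPKM in ZnO embryos and 171, 201 and 151 FPKM in controls (difference -0.54 ± 0.21 SE, limma adjusted p = 0.861). FLNC, filamin C, went the other way with 10.3, 8.23 and 6.08 FPKM in ZnO embryos and 3.9, 5.28 and 4.1 FPKM in controls, without overlap (difference 0.75 ± 0.20 SE, limma adjusted p = 0.801). Its gene model was only 603 bp long, with 68 to 114 reads in ZnO libraries and 43 to 58 in controls. Of the 19, 3 had all ZnO libraries below all controls (5.89% of all genes) and 1, FLNC, had them above (5.6% of all genes). The 3 were TNNI2, a troponin I of fast muscle, LMOD2, a leiomodin of the thin filament, and FHL2. They are named after their values were seen. TNNI2 had 2.89, 2.9 and 2.44 FPKM in ZnO embryos and 3.24, 3.65 and 3.07 FPKM in controls. LMOD2 had 1.23, 1.27 and 1.16 FPKM in ZnO embryos and 1.84, 2.24 and 1.74 FPKM in controls. FHL2 had 1.36, 1.29 and 1.97 FPKM in ZnO embryos and 2.76, 2.17 and 2.32 FPKM in controls. None of the 3 passed (differences of -0.21 for TNNI2, -0.40 for LMOD2 and -0.43 for FHL2, limma adjusted p of 0.957, 0.861 and 0.863). The most abundant genes of that list, TPM3 and MYL9, which are also active outside muscle, overlapped between groups.

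Of 20 other genes of excitation, secretion and metabolism, 12 were lower and 8 higher. NPPA, the natriuretic peptide gene of chamber muscle, had 10.1, 5.94 and 8.57 FPKM in ZnO embryos and 11.1, 15.9 and 11.5 FPKM in controls, lower in each ZnO library (difference -0.60 ± 0.22 SE, limma adjusted p = 0.859). POPDC3, a Popeye domain gene, had 3.73, 3.71 and 2.7 FPKM in ZnO embryos and 5.44, 5.04 and 4.11 FPKM in controls, also without overlap. Of the 20, 3 had all ZnO libraries below all controls (5.89% of all genes) and 1 had them above (5.6% of all genes). The gene above was CKB, named after its values were seen. CKB had 58.8, 63.4 and 60.7 FPKM in ZnO embryos and 49.7, 48.2 and 58.0 FPKM in controls. GJA1, the connexin 43 gene, was among the most abundant, and its groups overlapped.

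Further heart factors and the signals that induce the heart were counted in the same way. Of 17 other factors tested, 10 were lower (58.8%) and 7 higher, with a median difference of -0.05. HAND1, the relative of HAND2, had 367, 656 and 612 FPKM in ZnO embryos and 662, 719 and 892 FPKM in controls, lower in each ZnO library, with ZnO 2 only just below control 1. MEF2D, named after its values were seen, had 8.76, 8.88 and 9.79 FPKM in ZnO embryos and 8.64, 7.76 and 8.21 FPKM in controls. Of the 17, 1 had all ZnO libraries below all controls (5.89% of all genes) and 1 had them above (5.6% of all genes). SRF, the partner of myocardin, had 93.8, 112 and 119 FPKM in ZnO embryos and 82.5, 75.5 and 98.6 FPKM in controls, and its groups overlapped. Of 13 inducing signals and receptors, 9 were lower (69.2%) and 4 higher, with a median difference of -0.12. The groups overlapped for the ligand genes FGF4, BMP5 and BMP4 and for the receptor gene FGFR1. No gene of these 4 lists passed after adjustment.

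**Figure D5:**
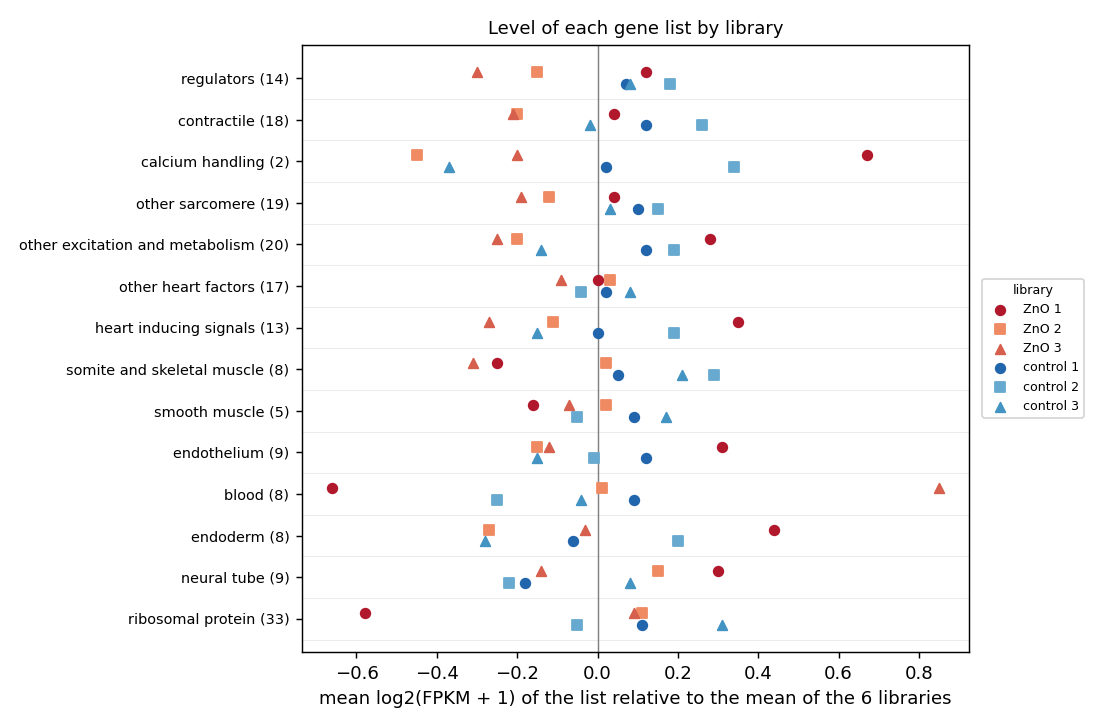
Rows are gene lists with the number of tested genes in brackets, and points are libraries (ZnO in red shades above, control in blue shades below), placed at the mean log2(FPKM + 1) of the list relative to the mean of the 6 libraries. Regulators and contractile genes lie below all controls in ZnO 2 and ZnO 3, as do other sarcomere and other excitation and metabolism genes. Calcium handling, heart inducing signal, endothelium and endoderm lists are also below 0 in both, but not below all controls in both. ZnO 1 is the highest library for the calcium handling, heart inducing signal, other excitation and metabolism, endothelium, endoderm and neural tube lists. It is the lowest for the smooth muscle, blood and ribosomal protein lists.

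Markers of other tissues also differed between libraries. Endoderm markers summed to 8565, 3805 and 6006 FPKM in ZnO 1, 2 and 3, and to 6929, 9875 and 4235 FPKM in control 1, 2 and 3, most of it APOA1. All 8 listed endoderm markers were tested, of which 3 were lower and 5 higher in ZnO embryos. Blood markers summed to 704, 1167 and 2163 FPKM in ZnO embryos and to 1384, 1043 and 1286 FPKM in controls, with the globin gene HBZ leading, and RUNX1 had the smallest p. Of 12 listed blood markers 8 were tested, 4 lower and 4 higher, and HBE1 was at 0 in at least 1 library. Endothelial markers, led by EGFL7 and with the smallest p for CLDN5, of which 9 of 10 listed were tested and 5 were lower, summed to 445, 312 and 301 FPKM in ZnO embryos and to 369, 348 and 311 FPKM in controls. Of 9 neural tube markers 6 were higher in ZnO embryos, 3 of them at an unadjusted p under 0.05, against 3.06% of all genes. No neural tube marker passed after adjustment (lowest limma adjusted p = 0.861). Led by NES and with the smallest p for SOX2, they summed to 238, 230 and 196 FPKM in ZnO embryos and to 182, 189 and 213 FPKM in controls. Smooth muscle markers, led by ACTA2, of which 5 of 6 listed were tested and 3 were lower, summed to 293, 439 and 381 FPKM in ZnO embryos and to 449, 385 and 482 FPKM in controls. ACTA2 is also active in the early heart tube and was lower in each ZnO library, with 157, 219 and 235 FPKM against 305, 248 and 299 FPKM in controls.

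Somite and skeletal muscle markers were lower for 7 of 8 genes tested among 12 listed, with a median difference of -0.43 and ACTA1 the most abundant, and summed to 140, 180 and 131 FPKM in ZnO embryos and to 180, 211 and 189 FPKM in controls. Of the 8, 3 were lower at an unadjusted limma p under 0.05, against 2.61% of all genes. All ZnO libraries lay below all controls for 3, against 5.89% of all genes. None passed after adjustment (lowest limma adjusted p = 0.827). MEOX1, a somite regulator, had 10.1, 17.0 and 15.1 FPKM in ZnO embryos and 19.2, 21.9 and 23.3 FPKM in controls. MYOG, which defines differentiating skeletal muscle, was at 0.0491 to 0.0509 FPKM in ZnO libraries and at 0 to 0.0938 FPKM in controls. Its reads numbered 1 in each ZnO library and 0 to 2 in the controls. All 33 ribosomal protein genes tested had a negative ZnO minus control difference, with a median of -0.26, the same as for the regulators and the contractile genes, and 0 had an unadjusted p under 0.05. They were lowest in ZnO 1 for 33 of 33, with a mean relative level of -0.58 there, 0.11 and 0.09 in ZnO 2 and ZnO 3, and -0.05 to 0.31 in controls, and the list is led by RPLP1, with the smallest p for RPL17. The part of these lists in the values of the heart genes was not tested.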

How the data were processed

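RNA of 6 whole-embryo libraries was sequenced as paired reads on an Illumina HiSeq after TruSeq preparation, per the labels' protocols. Bowtie2 2.2.3, TopHat2 2.0.12 and HTSeq 0.6.1 and the mouse build mm10 are named per the submitters' processing notes, with no parameters. The gene numbers are those of chicken, which conflicts with a mouse build, so the build used is not known. No source used here states strand use, so reads of antisense partners cannot be told apart. How reads shared by close paralogs were assigned is not stated either. The deposited values, 1 file per library, were taken as FPKM from their sums and steps, since the headers do not name a unit. Gene numbers were named with the RefSeq table of GRCg7b (19704 of 24098 matched), used for names only.

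Depths were solved from the FPKM steps: all 13311 tested genes gave reads within 0.005 of a whole number (model lengths of 20 to 60000 bp searched), against 5 of 500 genes with deliberately wrong depths. All genes averaging 1 FPKM or more entered 1 fit on log2(FPKM + 1) in R 4.3.3, using the moderated test of limma 3.58.1 with a mean-variance trend, ZnO minus control, two-sided, Benjamini-Hochberg over all genes, threshold 0.05. The fit was also run on simulated reads drawn independently for each gene and library, without a component shared by libraries. That run does not show how the fit performs on these data, where the first principal component was large. Members and lists were chosen with earlier results of these data known, so their counts are descriptions. Of 224 list entries, 204 matched by symbol. All members are named; values of every library are given for members whose groups do not overlap, the 5 smallest p among regulators and among the other members, and the most abundant of each class, and for others chosen after their values were seen. From each other cardiac list the 2 genes with the smallest p and the 2 most abundant are named, and from each marker list 1 of each, except for a few genes that are not reported here. Alternatives were another pseudocount, filters, scalings, a replicate block, limma-voom and leaving out libraries.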

Additional observations from a re-analysis of the deposited data

How the results depend on the processing

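No member passed an adjusted p of 0.05 in any of the 14 alternatives (476 values, lowest adjusted p 0.196), and 24 of the 34 tested members kept their direction in all of them, 19 lower and 5 higher. BMP10 turned to 0.03 when rescaled to the same FPKM sum and to 0.01 with median ratio scaling, MYH15 to 0.04 when rescaled and to 0.03 without ZnO 1 and control 2, and SMYD1 to -0.02 without those 2 libraries. Leaving out 1 library at a time gave ranges that crossed 0 for IRX4 (-0.60 to 0.03), BMP10 (-0.28 to 0.20), ACTN2 (-0.28 to 0.08), MYH7 (-0.03 to 0.19), MYH15 (-0.20 to 0.14), MYBPC3 (-0.36 to 0.13), LDB3 (-0.33 to 0.00), SMYD1 (-0.11 to 0.11), DES (-0.19 to 0.02) and CASQ2 (-0.09 to 0.60). The count of all genes past the threshold was 0 to 4 when 1 library was left out, with 4 without ZnO 1, and 3 without ZnO 1 and control 2. The cause was not tested.

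Correlations of deviations over genes between same-numbered libraries were -0.03, -0.37 and 0.41 for numbers 1, 2 and 3. The highest were between differently numbered libraries, 0.579 for ZnO 1 with control 2 and 0.417 for ZnO 2 with control 3. The numbers were therefore not taken to pair the libraries. With a replicate block, 0 members and 0 genes passed and 26 members were lower.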
